A study of Mus musculus with 10 samples.

Results

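LIF and gp130 signalling through STAT3 was followed in the RNAs pulled down with FLAG-tagged MEX3A from mouse neural stem cell cultures. The genes were chosen by name and are the ligand Lif, the receptor chains Lifr, Osmr and Il6st (gp130), the kinases Jak1 and Jak2, the transcription factor Stat3 and the feedback inhibitor Socs3. These 8 genes were all present among the 15899 genes of the deposited matrix.

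LIF is a cytokine of the interleukin-6 family. It binds the LIF receptor, which pairs with gp130, and the Janus kinases bound to the receptor chains then phosphorylate STAT3. Phosphorylated STAT3 moves to the nucleus, and Socs3 is one of its target genes, whose protein binds gp130 and the kinases and switches the signal off. In the brain this pathway is known for driving astrocyte formation and for sustaining neural stem cells, and transcripts of cytokines and of SOCS proteins are known to be short-lived.

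MEX3A is an RNA-binding protein with KH domains. The Mex3aFLAG/FLAG cultures (FLAG) carried a FLAG peptide at the end of the endogenous MEX3A protein on both alleles, and the Mex3a+/+ cultures (WT) carried no tag, so that their anti-FLAG pull-down gives the nonspecific background. Both were neurospheres from the brain subependymal zone of adult mice of 10 weeks, grown with EGF and FGF, and both genotypes shared the C57BL/6J background. The RNA-immunoprecipitation was done with crosslinking (2 FLAG and 2 WT libraries) and without it, called native here (3 FLAG and 3 WT libraries). The labels do not say how many mice a culture came from or whether a crosslinked and a native library shared a culture. Input RNA was not analysed here, so a FLAG over WT value holds both the binding of an RNA and any difference in its level between the cultures.

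The values are log2 expression values with nearly the same distribution in every library, so they do not give the depth of a library. In FLAG native replicates 1 and 3, 329 and 178 genes were tied at the lowest value of the library (-1.70 and -1.99), against at most 3 genes in each of the other libraries. Of the neural stem cell markers, all 10 were in the matrix and 0 were called in any FLAG against WT comparison, where called means that the adjusted p-value is under 0.05 and that the log2 fold change exceeds 0.58 either way. The neuronal marker Rbfox3 was called lower in FLAG over all libraries (log2 fold change -1.31 ± 0.17, SE, limma adjusted p = 0.013). Rbfox3 was not called within either protocol (limma adjusted p = 0.5295 crosslinked and 0.0615 native). It was the only gene called among the 7 lists of cell type markers, and its part in the results was not tested. In such pull-downs from bulk cultures, fewer cells of a type, less RNA per cell and less RNA pulled down cannot be told apart. The markers Gfap, Dcx and Tubb3 were not analysed here. Mex3a itself had a log2 fold change of 1.73 ± 0.37 over all libraries (limma adjusted p = 0.0789), and in both protocols its FLAG values were all above its WT values.

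Sequences of the 3' untranslated regions (3' UTRs) are shown because the study placed MEX3A preferentially there. The study also found the MEX-3 recognition element (MRE) enriched in the 3' UTRs of its pulled-down RNAs. The MRE was defined in the nematode protein as a pair of short half-sites with a gap of 0 to 8 bases. How mammalian MEX3 proteins recognise their targets is still open, according to the study. For each gene the longest 3' UTR in the annotation was searched on the transcript strand for the MRE and for ATTTA, the core of AU-rich elements, which mark short-lived transcripts. In the stretches that follow, the capitals mark the half-sites of the MRE, with 4 bases on either side where the gap allows, in GRCm38 coordinates. The first 3 are from Lif, which lies on the plus strand, and the others are from Socs3, on the minus strand of the same chromosome.
Lif, chr11:4269976-4269991: tggaAGAGTCTAggtc
Lif, chr11:4270055-4270072: tcggTTAGctTCTAtgca
Lif, chr11:4272082-4272097: actgAGAGTTTActgg
Socs3, chr11:117966965-117966983: ctgaAGAGagcTATActgg
Socs3, chr11:117966869-117966886: ggcaGTAGcaTTTAgaag
Socs3, chr11:117966088-117966111: taaaAGAGcactatttTTTAatga

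The ATTTA matches of both genes lay in part close together near the end of the 3' UTR, as the next stretches show, with ATTTA in capitals and 8 bases on either side.
Lif, chr11:4272406-4272426: ttatttttATTTAttcaatgt
Lif, chr11:4272431-4272451: tttaaaatATTTAttttttat
Socs3, chr11:117966143-117966163: gcacatatATTTAtatttata
Socs3, chr11:117966107-117966127: tttcagtaATTTAtaataaaa
A stretch can hold both motifs, as the 3' half-site of the second Socs3 element is also part of an ATTTA.

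These motifs are common in mouse 3' UTRs. Of the 12177 coding genes of the matrix with an annotated 3' UTR, 79.1% held an MRE match and 72.6% an ATTTA. The 3' UTR of Lif (3180 nt) held 7 MRE matches, some of them overlapping, where the median of 1815 3' UTRs within 20% of its length was 8, and 60.3% of them held as many or more. Socs3 (1474 nt) held 4, against a median of 3, and 45.6% of 3' UTRs of like length held as many or more. The element was also written with the last letters of the 3' half-site exchanged, a form that also appears in the study's text. In that form it matched 1 time in Lif and 0 times in Socs3, so the counts of these genes depend on the form. Of 3' UTRs of like length, 99.1% for Lif and 90.2% for Socs3 held at least 1 match of that form. Il6st held 20 MRE matches in 5641 nt and Lifr 17 in 6320 nt, against medians of 15 and 17 at their lengths. Stat3 held 9, Osmr 4, and Jak1 and Jak2 3 each, which were 0 to 1 above the median for their lengths. ATTTA was found 11 times in Lifr, 9 times in Il6st, 7 times in Lif, 4 times each in Socs3, Osmr and Jak1, and 2 times each in Jak2 and Stat3. For Stat3, 89.4% of 3' UTRs of like length held as many or more. The share with as many ATTTA or more was 32.3% for Lif, 26.5% for Socs3 and 16.3% for Jak1. A match of letters is a description and does not show a bound site.

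Lif encodes the cytokine itself and lies at chr11:4257557-4272514 on the plus strand. Its log2 values in the crosslinked libraries were 0.71 and 2.28 in FLAG and -0.08 and 1.10 in WT. In the native libraries they were 1.04, 1.90 and 2.06 in FLAG and -1.16, 0.22 and -1.32 in WT. The crosslinked groups thus overlapped, with WT replicate 2 above FLAG replicate 1, and the native groups did not. The log2 fold change was 0.99 ± 0.71 (SE) crosslinked, 2.42 ± 0.54 native and 1.84 ± 0.48 over all libraries, which is 1.98-fold, 5.34-fold and 3.59-fold. The crosslinked value depended on single libraries: it was 0.20 without FLAG replicate 2, 0.40 without WT replicate 1, 1.58 without WT replicate 2 and 1.77 without FLAG replicate 1. Lif was not called (limma adjusted p = 0.791, 0.191 and 0.103). By the size of its native change it ranked 58 of the 15899 genes.

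**Figure D1:**
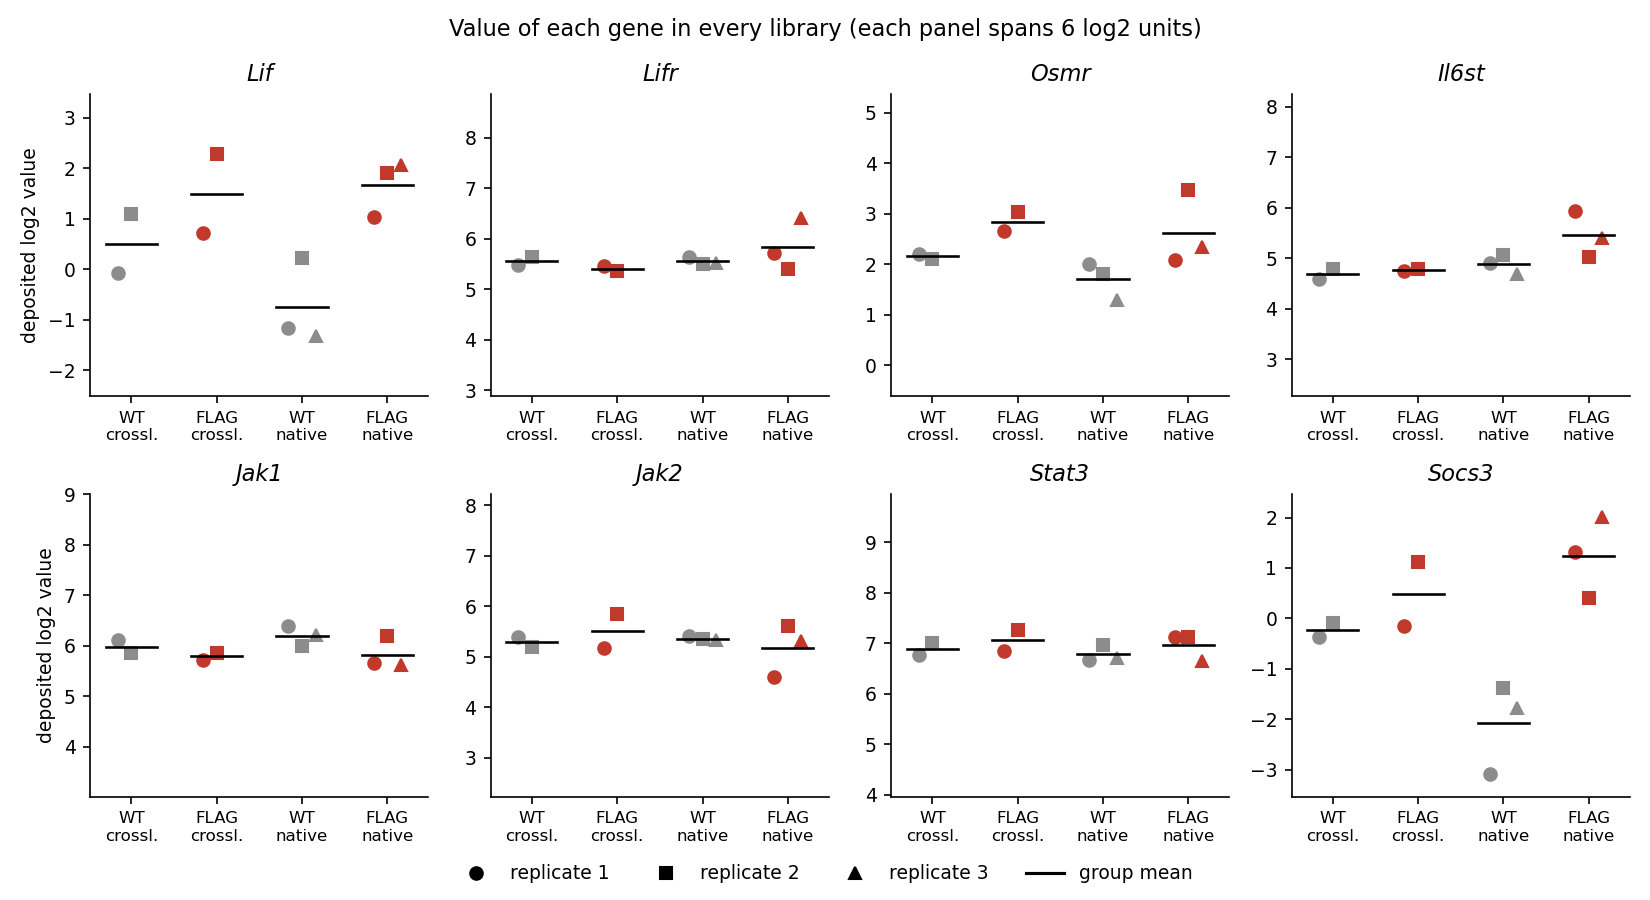
Deposited log2 value of each of the 8 genes (panels) in the WT (grey) and FLAG (red) libraries of both protocols, with symbols for the replicate number and a line for the group mean; every panel spans 6 log2 units. The native FLAG libraries of Lif, Socs3 and Osmr lie above all native WT libraries, while the values of Stat3, Jak1, Jak2, Lifr and Il6st overlap there.

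Socs3 encodes the feedback inhibitor of the pathway and lies at chr11:117966079-117970047 on the minus strand. Its crosslinked log2 values were -0.15 and 1.12 in FLAG and -0.38 and -0.08 in WT. Its native values were 1.32, 0.41 and 2.01 in FLAG and -3.08, -1.37 and -1.78 in WT. The native groups were separate, with the lowest FLAG library 1.79 above the highest WT library, and the crosslinked groups overlapped. The log2 fold change was 0.71 ± 0.50 crosslinked, 3.32 ± 0.67 native (10.0-fold) and 2.28 ± 0.59 over all libraries (4.85-fold). The crosslinked value was 0.079 without FLAG replicate 2 and 1.35 without FLAG replicate 1. The value over all libraries was 1.47 ± 0.59 without FLAG native replicates 1 and 3 and 1.61 ± 0.32 with array weights. Socs3 ranked 16 of all genes by its native change, and like Lif it was not called (limma adjusted p = 0.789, 0.149 and 0.103).

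No member was called for a difference between the protocols, and the estimate furthest from 0 was that of Socs3. Its FLAG against WT change was 2.61 ± 0.95 higher in the native than in the crosslinked libraries, which was not called in the fit of 4 groups (limma adjusted p = 0.970). In the WT background, the crosslinked minus native difference in log2 value was 1.85 ± 0.67 for Socs3 and 1.26 ± 0.65 for Lif, and neither was called (limma adjusted p = 0.499 and 0.726). For Osmr the same WT difference was 0.46 ± 0.40. The difference between protocols for Lif was 1.43 ± 0.91 (limma adjusted p = 0.970), and 0 of the 8 genes and 0 of all 15899 genes were called for it (0.0% of genes). With an unadjusted p-value, Socs3 was the 1 gene of the 8 that passed, against 0.415% of all genes. For the WT difference between protocols, 0 of the 8 genes were called, against 0.333% of all genes.

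Socs3 and Lif were low genes, near the level at which values were tied. The Socs3 value of WT native replicate 1 (-3.08) was below the lowest value that any gene had in FLAG native replicates 1 and 3. Without those 2 libraries, an alternative added after the data had been seen, the native change was 2.49 ± 1.06 for Socs3 (limma adjusted p = 0.920) and 2.65 ± 0.80 for Lif (0.614), from 1 FLAG library that is assumed to vary like the WT libraries. With a pseudocount of 1 the native change was 1.45 ± 0.30 for Socs3 and 1.36 ± 0.29 for Lif on the log2(value + 1) scale, on which changes of low genes are smaller. Lif and Socs3 stand in the study's list of RNAs enriched with MEX3A, although neither was called here in any comparison. The study kept only genes that passed in both protocols and used DESeq2, which is a different test from the one used here. Its list was drawn from these same libraries, so that list and these values are not independent.

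Among the receptor chains, Osmr, the receptor subunit for oncostatin M that pairs with gp130, lay higher in FLAG. It lies at chr15:6813577-6874969 on the minus strand. The crosslinked log2 values of Osmr were 2.66 and 3.03 in FLAG and 2.21 and 2.11 in WT, and the native values were 2.08, 3.47 and 2.34 in FLAG and 2.01, 1.80 and 1.3 in WT. Every FLAG library was above every WT library of its protocol, although FLAG native replicate 1 and WT native replicate 1 were 0.063 apart. The log2 fold change was 0.69 ± 0.17 crosslinked, 0.93 ± 0.41 native and 0.83 ± 0.26 over all libraries (1.78-fold), and it was not called (limma adjusted p = 0.502, 0.298 and 0.140). The native value was 0.50 without FLAG native replicate 2 and 1.77 without FLAG native replicates 1 and 3. Osmr was the only one of the 8 genes with FLAG above WT without overlap in both protocols, as were 4.84% of all genes.

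Lifr and Il6st, the chains that form the LIF receptor complex, had smaller log2 fold changes than Osmr in each comparison, an order that was not tested. It did not hold in the native libraries without FLAG native replicate 2, where Il6st was at 0.79, Osmr at 0.50 and Lifr at 0.50. Lifr (chr15:7090614-7197489, plus strand) had crosslinked log2 values of 5.47 and 5.36 in FLAG and 5.47 and 5.63 in WT, and native values of 5.72, 5.41 and 6.40 in FLAG and 5.65, 5.51 and 5.52 in WT. The crosslinked FLAG libraries were just below WT and the native groups overlapped, with FLAG native replicate 3 standing highest. Its log2 fold change was -0.14 ± 0.10 crosslinked, 0.28 ± 0.25 native and 0.11 ± 0.18 over all libraries. The native and all-library values rested on FLAG native replicate 3, without which they were 0.0037 ± 0.19 and -0.062 ± 0.10. The native value was 0.50 ± 0.21 without FLAG native replicate 2. Il6st (chr13:112464070-112510086, plus strand) had crosslinked log2 values of 4.74 and 4.79 in FLAG and 4.59 and 4.78 in WT. Its native values were 5.94, 5.01 and 5.40 in FLAG and 4.90, 5.05 and 4.68 in WT. WT native replicate 2 was thus above FLAG native replicate 2. The log2 fold change of Il6st was 0.08 ± 0.10 crosslinked, 0.57 ± 0.25 native and 0.38 ± 0.18 over all libraries (limma adjusted p = 0.880, 0.300 and 0.252). Without FLAG native replicate 1 it was 0.33 ± 0.22 native and 0.22 ± 0.13 over all libraries, and without FLAG native replicates 1 and 3 it was 0.13 ± 0.20 and 0.10 ± 0.10.

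Of the kinases and STAT3, none was called. Jak1 (chr4:101152367-101265282, minus strand) had native log2 values of 5.66, 6.19 and 5.63 in FLAG and 6.39, 6.0 and 6.22 in WT, and crosslinked values of 5.72 and 5.86 in FLAG and 6.11 and 5.85 in WT. FLAG was lower on average and the groups overlapped in both protocols. The log2 fold change of Jak1 was -0.38 ± 0.21 native and -0.30 ± 0.14 over all libraries (95% interval -0.60 to 0.0018; limma adjusted p = 0.361 and 0.239). Its limma adjusted p was under 0.05 in some alternatives, 0.0344 (native) and 0.0175 (all) with array weights and 0.0423 (native) without FLAG native replicate 2, with log2 fold changes of -0.58, -0.23 and -0.56 that did not exceed 0.58 in size. Without FLAG native replicates 1 and 3 the change of Jak1 was instead -0.011 ± 0.19 native and -0.11 ± 0.11 over all libraries (limma adjusted p = 1.0 and 0.785). Jak2 (chr19:29251828-29313080, plus strand) ranged from 4.61 to 5.84 in FLAG and from 5.19 to 5.40 in WT, so the FLAG libraries lay on both sides of WT. Its log2 fold change was 0.21 ± 0.26 crosslinked, -0.18 ± 0.26 native and -0.02 ± 0.20 over all libraries, and with array weights the last was 0.35 ± 0.11 (limma adjusted p = 0.0297), below the fold limit. Stat3 (chr11:100885098-100939540, minus strand), the transcription factor of the pathway, ranged from 6.66 to 7.26 in FLAG and from 6.66 to 7.0 in WT. Its log2 fold change was 0.17 ± 0.18 crosslinked, 0.19 ± 0.19 native and 0.18 ± 0.13 over all libraries (95% interval -0.11 to 0.47). With array weights the value over all libraries was 0.43 ± 0.074 (limma adjusted p = 0.0019), also below the fold limit.

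**Figure D2:**
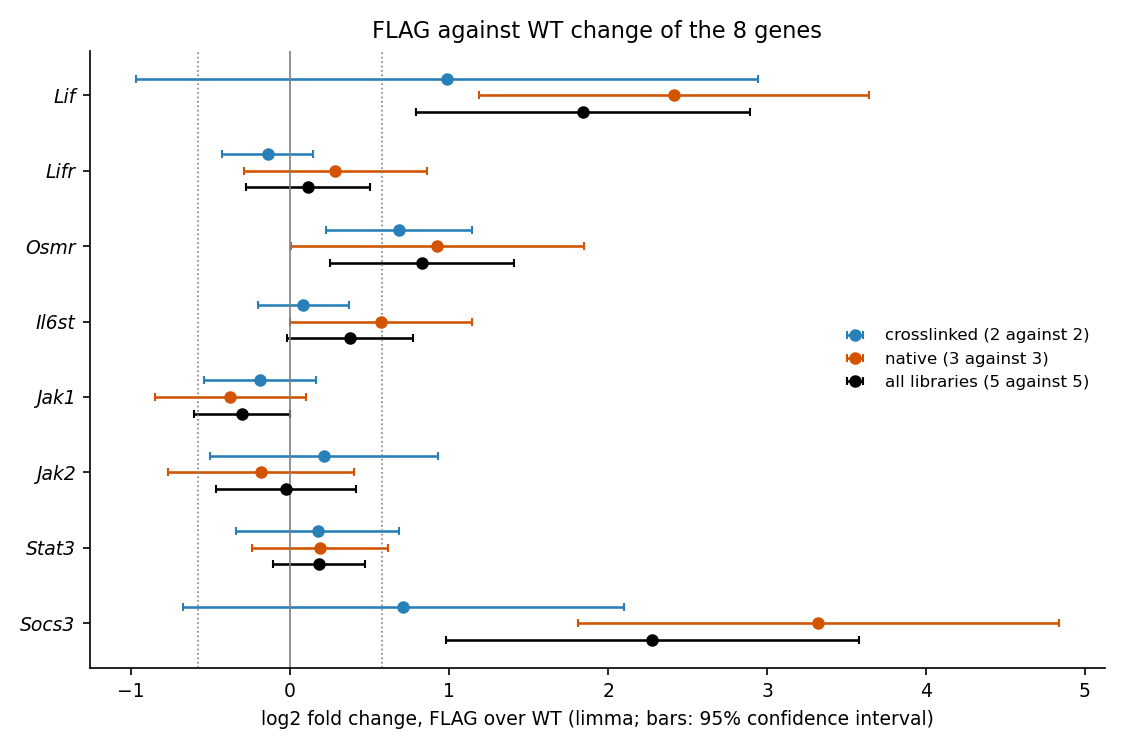
Log2 fold change of FLAG over WT for each of the 8 genes in the crosslinked (blue), native (orange) and all libraries (black), with 95% confidence intervals from limma; dotted lines mark a log2 fold change of 0.58 either way. The native and all-library intervals of Lif and Socs3 lie above 0.58, while those of Lifr, Il6st, Jak1, Jak2 and Stat3 include 0 in every comparison.

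Counted together, 0 of the 8 genes were called higher and 0 lower in any of the 3 comparisons. Over all genes, 0.0% were called higher in the crosslinked, 0.0% in the native and 0.264% in all libraries, and the lower calls were 0.0%, 0.107% and 0.233%. With the same limits on an unadjusted p-value and on the log2 fold change, 1 of the 8 genes (Osmr) passed in the crosslinked libraries against 2.78% of all genes, 3 (Lif, Socs3 and Osmr) in the native against 7.77%, and the same 3 over all libraries against 7.24%. None of the 8 passed in the lower direction, against 0.987%, 7.06% and 5.28% of all genes. The median log2 fold change of the 8 genes was 0.19 crosslinked, 0.43 native and 0.28 over all libraries, beside -0.02, -0.04 and -0.03 for all genes. In the native libraries the FLAG values of 3 of the 8 genes lay above all WT values, as did those of 8.62% of all genes, and in the crosslinked libraries 1 lay above (19.1% of genes) and 1, Lifr, below (19.9%).

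The native result turned on FLAG native replicate 2. Without it, leaving the 2 FLAG libraries with tied low values, Lif, Socs3 and Il6st were called higher, with log2 fold changes of 2.30 ± 0.64, 3.74 ± 0.72 and 0.79 ± 0.21 (limma adjusted p = 0.0410, 0.0151 and 0.0334), and 9.12% of all genes were called higher as well. With array weights from limma, under which this library counted least of the 6 (weight 0.292), the fit called the same 3 genes in the native libraries with 10.4% of all genes called higher. Over all libraries the array weights gave their highest weight to FLAG crosslinked replicate 2 (10.2) and called Lif, Socs3 and Osmr higher, with 6.95% of all genes. Without WT crosslinked replicate 2, Lif alone of the 8 was called over all libraries (2.16 ± 0.46, limma adjusted p = 0.0427; 1.14% of genes called higher).

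**Figure D3:**
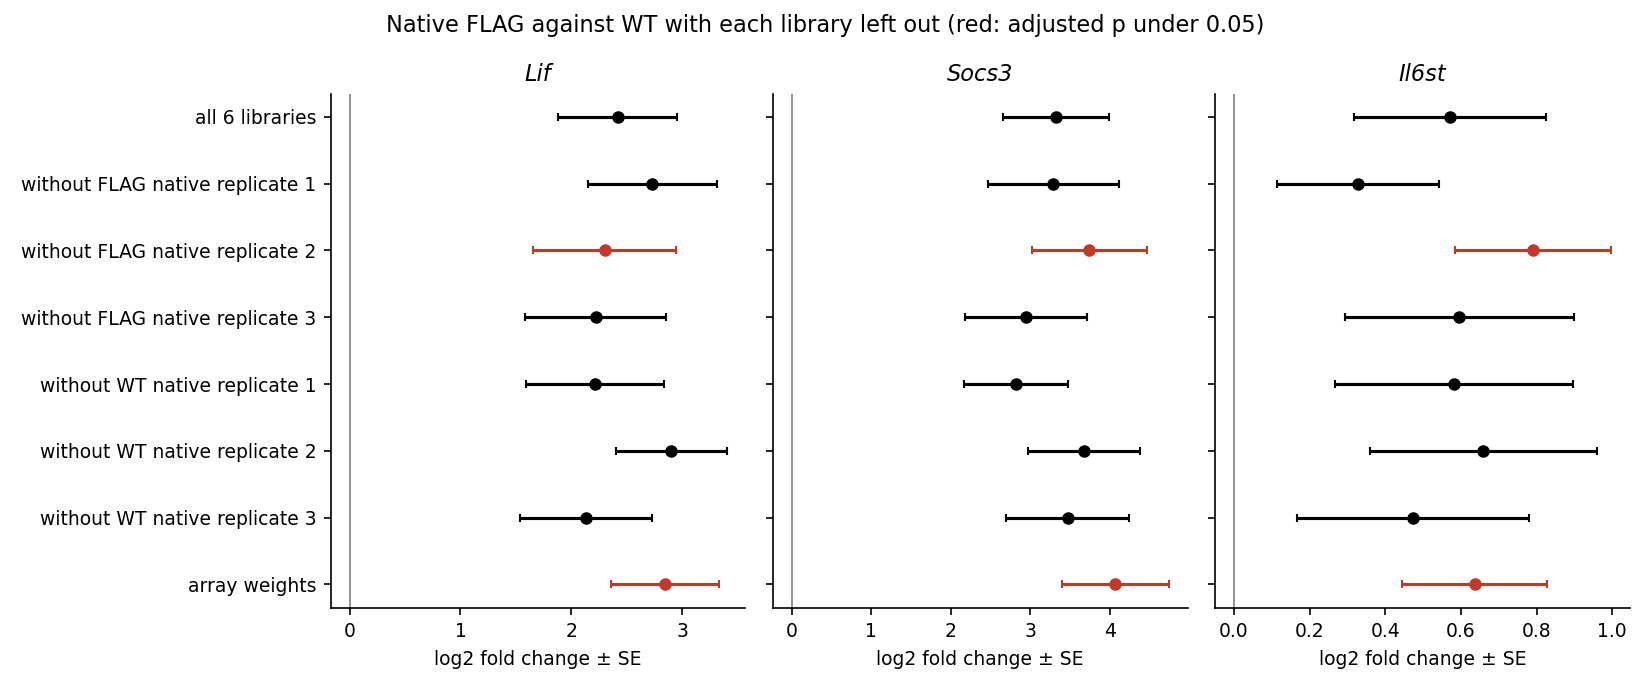
Native log2 fold change of FLAG over WT with its standard error for Lif, Socs3 and Il6st, from all 6 libraries, with each library left out and with array weights; red marks an adjusted p-value under 0.05 with a log2 fold change above 0.58. The change of all 3 genes is above 0 in each fit, and it is called without FLAG native replicate 2 and with array weights.

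The change moved with the length of a gene. Over the 995 coding genes that span up to 5 kb, the median native log2 fold change was 0.56, and it was 0.25 for genes of 5 to 20 kb, -0.02 for 20 to 50 kb, -0.16 for 50 to 100 kb and -0.29 over 100 kb. In the crosslinked libraries the medians ran from 0.20 to -0.04. Socs3 spans 3969 nt, of which 72.8% is exonic, and Lif spans 14958 nt (29.1% exonic), so the members with the highest changes were also the shortest. Their native changes of 3.32 and 2.42 were above the upper quartiles of their classes, 0.91 and 0.58. Osmr spans 61393 nt, and its native change of 0.93 stood against an upper quartile of 0.07 for its class. Jak1 and Lifr, which span over 100 kb, had native changes of -0.38 and 0.28 in a class whose quartiles were -0.56 and -0.03. Both values moved with the FLAG native libraries included, as given above. The part of gene span in these results was not tested.

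**Figure D4:**
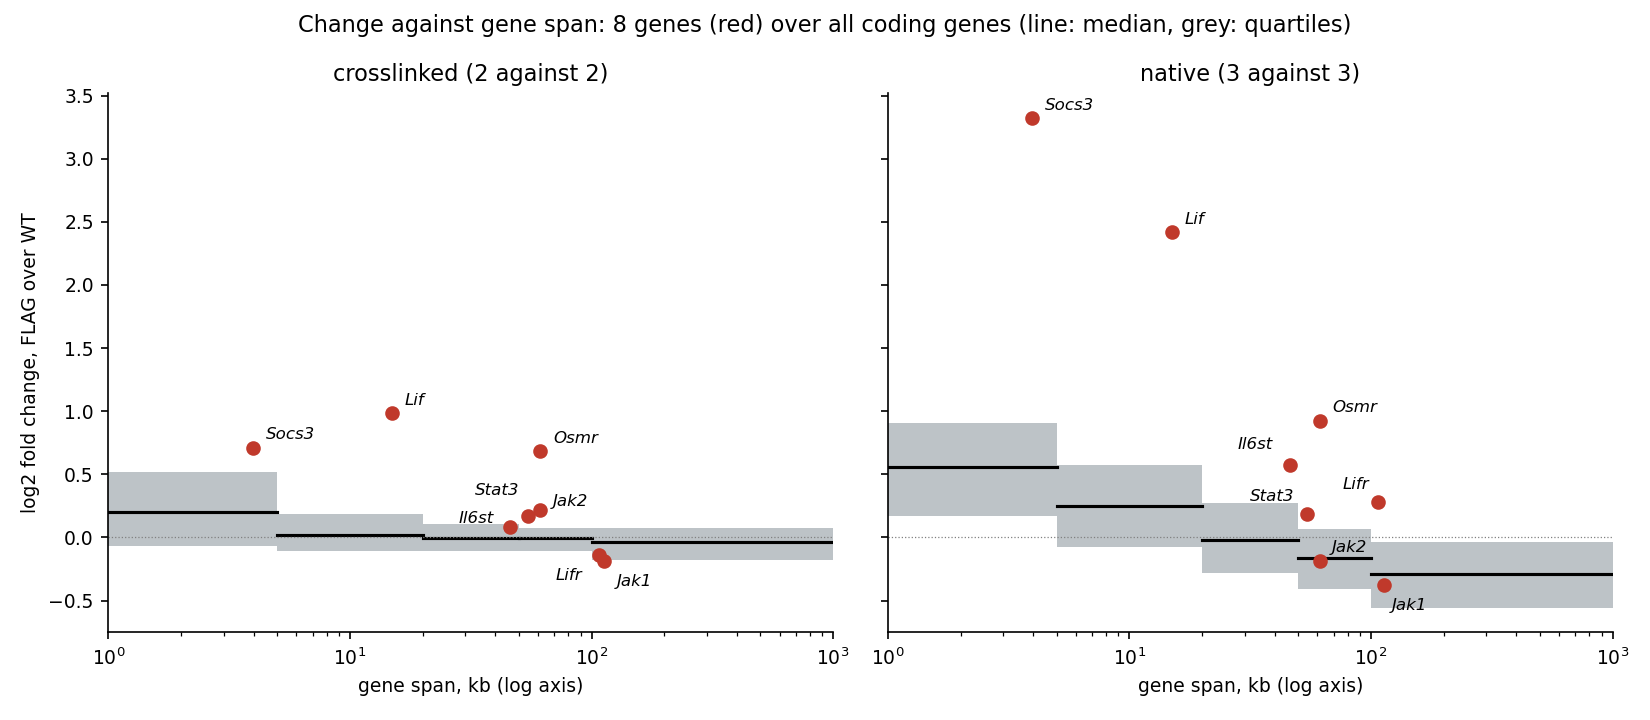
Log2 fold change of FLAG over WT against gene span in kb on a log axis, for the crosslinked and the native libraries; red points are the 8 genes, and the black lines and grey bands give the median and quartiles of all coding genes in each class of span. The medians fall from short to long genes, from 0.56 to -0.29 in the native libraries, and Socs3, Lif, Osmr, Il6st, Stat3 and Lifr lie above the band of their class there.

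Levels between genes were set side by side per length, as the log2 value minus log2 of the merged exon length in kb. In the 5 WT libraries the order was Stat3 (3.57 ± 0.16, SD), Jak1 (3.26 ± 0.21), Jak2 (3.00 ± 0.08), Lifr (2.13 ± 0.08), Il6st (1.33 ± 0.18), Osmr (-1.71 ± 0.36), Lif (-2.37 ± 1.00) and Socs3 (-2.87 ± 1.2). The WT ranges of neighbours overlapped from Stat3 to Jak1, from Jak1 to Jak2, from Osmr to Lif and from Lif to Socs3, and the remaining steps were larger than the spread. In the 5 FLAG libraries, Stat3 was again highest (3.75 ± 0.24), and the lowest were Lif (-0.52 ± 0.68), Socs3 (-0.59 ± 0.83) and Osmr (-0.88 ± 0.55), whose ranges overlapped. The ligand and the inhibitor were thus detected at far lower levels than the kinases and STAT3 in both groups.

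Other genes of the pathway were taken from 6 lists. Outside the 8 genes they name 61 genes, of which 42 were in the matrix, and 0 of these were called in any comparison. Over all libraries 8 passed higher and 1 lower with an unadjusted p-value, against 7.24% and 5.28% of all genes, and their median log2 fold change was 0.06, beside -0.03 for all genes. Values that follow are log2 fold changes over all libraries, none of them called.

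Of the other ligands, only Clcf1 (0.87 ± 0.50), a cytokine of the CNTF receptor, and Cntf (-0.51 ± 0.35), a survival factor, were in the matrix, 2 of 10. Of the other receptor chains, 4 of 5 were there, from Cntfr (0.03 ± 0.10) to Il31ra (0.87 ± 0.41), whose native WT libraries alone spread from 9.27 to 11.77. The other kinases and STATs, 6 of 8, had a median of -0.09, from Tyk2, a Janus kinase (-0.40 ± 0.23), to Stat6, which acts in interleukin-4 signalling (1.02 ± 0.31). The adaptors to MAPK and PI3K, 6 of 6, lay between Shc1 (-0.22 ± 0.18) and Ptpn11 (0.12 ± 0.10), the phosphatase that links gp130 to the MAPK branch.

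The other inhibitors had a median near that of all genes. Of 15 listed, 12 were in the matrix, with a median log2 fold change of -0.06, and 4 of them were above 0. The highest was Socs4 (1.12 ± 0.35, limma adjusted p = 0.137) and the lowest Socs2 (-0.58 ± 0.16, limma adjusted p = 0.119), which encode proteins of the same family. In Socs4 every FLAG library was above every WT library of its protocol, as in 4.84% of all genes. In Socs2 every FLAG library was below, though the native groups were close, with 2.50 highest in FLAG and 2.56 lowest in WT. The share of all genes below in both protocols is not given here.

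The known STAT3 target genes, a list that includes Osmr, Lifr and Il6st, lay on the high side. Of 20 listed, 15 were in the matrix, and all 15 had a log2 fold change above 0 in the native libraries and over all libraries, against 47.4% and 46.8% of all genes. Their median was 0.93 native and 0.77 over all libraries, and 14 of 15 were above 0 in the crosslinked libraries (46.3% of genes), with a median of 0.40. None of the 15 was called. With an unadjusted p-value, 2 passed higher in the crosslinked, 7 in the native and 7 in all libraries, against 2.78%, 7.77% and 7.24% of all genes. The values ran from Bcl2l1, an inhibitor of apoptosis (0.07 ± 0.19), to Klf4, a pluripotency factor (2.32 ± 0.58, limma adjusted p = 0.096). The highest Klf4 value of the native WT libraries was -0.38 and the lowest of the native FLAG libraries 0.80, while the crosslinked Klf4 values overlapped, from -0.25 to 1.40 in FLAG and from -1.86 to -0.11 in WT. The share above 0 also moved with gene span. It was 82.7% native and 82.0% over all libraries for coding genes that span up to 5 kb. For those over 100 kb it was 23.2% and 25.8%. The part of gene span in this list was not tested. As the list is described by its counts and median only, it is not shown to differ from other lists of genes.

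**Figure D5:**
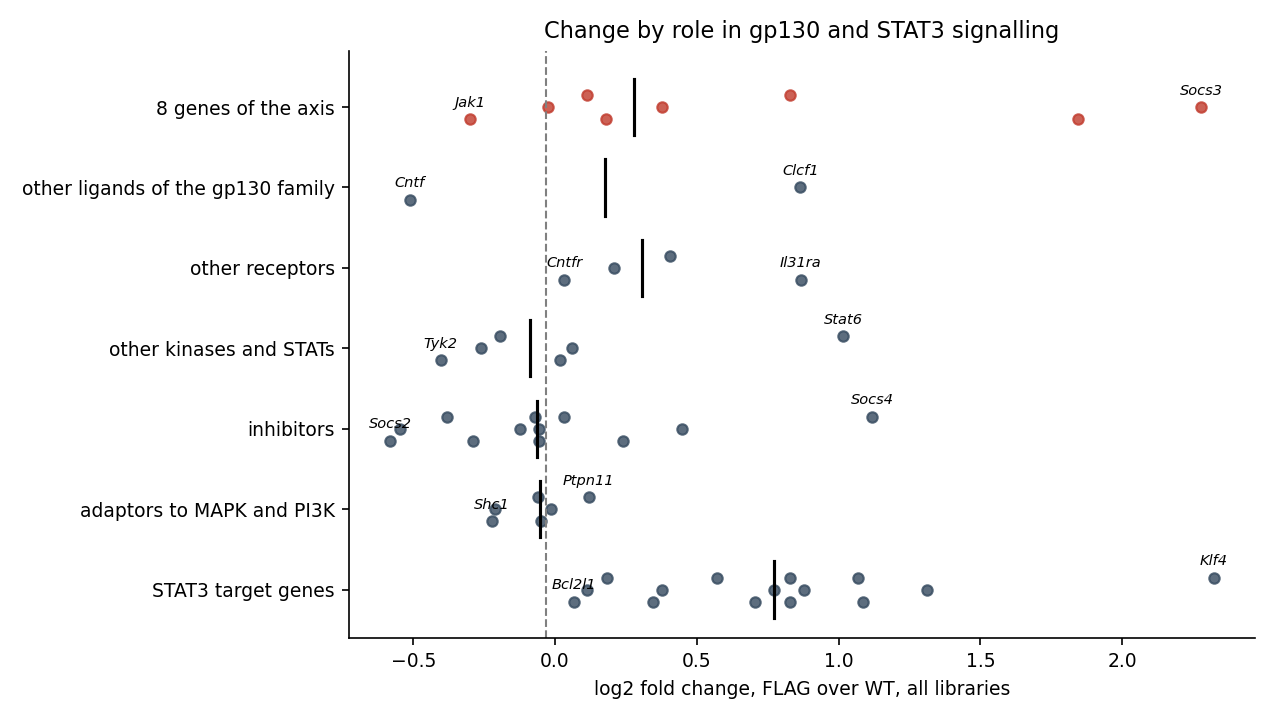
Log2 fold change of FLAG over WT over all libraries for the 8 genes (red) and for the other genes by their role (dark), where each point is a gene, black lines are list medians, the dashed line is the median of all genes (-0.03), and the highest and lowest gene of each list are named. The STAT3 target genes, which include 3 of the 8, have a median of 0.77 and the inhibitors one of -0.06.

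The genes most like each member were those with the smallest root mean square difference of mean-centred log2 values over the 10 libraries, among 14850 genes with a mean log2 value of at least 0 (Socs3, whose mean was -0.20, could be compared with them but not be found). The values share their libraries, so they are a description. Nearest to Lif were Renbp (0.55), Egr2 (0.58), a zinc finger transcription factor, and Clic5 (0.58). Nearest to Socs3 were Inf2 (0.58), a formin, then Lif itself (0.68) and Gm16277 (0.70). With each protocol centred on its own mean, Lif was no longer among the 3 genes nearest to Socs3, which were then Inf2, Pdp2 and F3. The differences for Lif and Socs3 were larger than those for the other members. Osmr was closest to Chka, Cp and AC112142.1 (0.26 to 0.27), and Il6st to Rsc1a1, Ppp2r1a and Tsn (0.06 to 0.10). Stat3 was closest to Cttn, Bcl2l11 and Bmp1 (0.09 to 0.11), Jak1 to Mpeg1, Pgm2 and Usp25 (0.07 to 0.09), Jak2 to Plod2, Mcee and Chrm3 (0.09 to 0.12), and Lifr to Brd3, Gm16272 and Ubqln1 (0.11 to 0.12). With each protocol centred on its own mean, 0 of these 3 genes remained nearest to Lifr, 1 of 3 each for Il6st, Jak1 and Socs3, and 2 of 3 each for Lif, Osmr, Jak2 and Stat3.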

How the data were processed

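The values deposited by the authors are on a log2 scale and cover 15899 genes in 10 libraries. Per the study's methods and the submitters' notes, Cutadapt and Trimmomatic trimmed the reads, HISAT2 placed them on GRCm38, and featureCounts gave a count for each gene. DESeq2 is named for normalization and limma in the notes, and the nearly equal distributions of the deposited log2 values were not explained in the sources used here. They were used as deposited, without a pseudocount, and the depth is unknown. FLAG and WT libraries were compared with limma 3.58.1 (R 4.3.3; lmFit, eBayes with trend) within each protocol and, with a term for the protocol, over all libraries, and a fit of 4 groups gave the difference between protocols and the protocol change in WT. P-values were adjusted by Benjamini-Hochberg over all genes, and the fits were tested on simulated data. In the crosslinked libraries the lowest limma adjusted p-value of any gene was 0.315, so no gene reached the limit there. The p-values measure the spread between these libraries only. Annotation and 3' UTRs were those of GENCODE M21 (GRCm38), which held 15864 of the genes, and all 8 members had the deposited start and end. Python 3.11.15, pandas 2.3.3, numpy 2.4.6 and matplotlib 3.10.9 were used.

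The members, gene lists and tests were chosen with earlier results of these data known. The named genes are the 8 members, Mex3a, called pathway genes, the highest and lowest gene of each pathway list over all libraries and the 3 genes most like each member; Rbfox3 and absent markers were named after their values were seen. Alternatives were a pseudocount of 1, a minimum mean log2 value of 0, quantile normalization, robust moderation, array weights, a replicate block, 1 fit of 4 groups, the culture as a random block, and each library left out. Fits without FLAG native replicates 1 and 3 and a crossed block were chosen after seeing the data. Of the lists of cell type markers, the log2 fold changes over all libraries had medians of 0.46 (neural stem and progenitor cells, 10 of 10 genes in the matrix), 0.54 (astrocytes, 4 of 5), -0.64 (neuroblasts and neurons, 3 of 5), -0.07 (oligodendrocytes, 1 of 4), 0.11 (microglia, 2 of 6), -0.74 (endothelial cells, 3 of 5) and 0.35 (ependymal cells, 1 of 3).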

Additional observations from a re-analysis of the deposited data

How the results depend on the processing

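The direction of Lif, Socs3 and Osmr was the same in each comparison of FLAG with WT under all alternatives run (Socs3 was below the minimum mean of 0 and has no value there). Of 406 refitted values of members, 10 passed the threshold where the reported value did not (with array weights, or without FLAG native replicate 2 or WT crosslinked replicate 2), and 15 changed sign. With array weights the change over all libraries was -0.10 for Lifr and 0.35 for Jak2. Without both FLAG native libraries with tied values it was -0.15 (native) and -0.15 (all) for Lifr and 0.24 (native) and 0.23 (all) for Jak2. With single libraries left out, the crosslinked values ranged from -0.013 to 0.18 for Il6st, -0.12 to 0.55 for Jak2 and -0.032 to 0.38 for Stat3. The native values of Jak2 ranged from -0.40 to 0.10, the values over all libraries from -0.17 to 0.15 for Jak2 and -0.062 to 0.21 for Lifr, and the difference between protocols of Osmr from -0.18 to 0.52.

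Counts over all genes moved more. Native calls numbered 1656 higher and 1921 lower with array weights, 1 and 3 with 1 fit of 4 groups, 2 higher with robust moderation, and 1 and 8 without both libraries with tied values. Over all libraries, 1105 were called higher and 964 lower with array weights, 7 and 8 (against 42 and 37) with the culture as a random block, and 8 and 10 without both libraries. Leaving out single libraries gave 0 to 1450 higher and 0 to 1710 lower (native), 4 to 516 higher and 7 to 219 lower (all), 0 to 4 higher (crosslinked), 0 to 1 for the difference between protocols and 0 to 97 for the protocol change in WT, which 864 genes passed with array weights. Of the 8 genes, 0 to 3 (native) and 0 to 1 (all) were called higher with single libraries left out, and 3 in each with array weights. The cause was not tested.

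FLAG and WT libraries of the same number had correlations of their deviations from the group means of -0.27 crosslinked and -0.43 to -0.15 native. With 2 libraries in a group the deviations mirror each other, so the crosslinked value cannot show whether the numbers pair. Libraries of different numbers were not compared. Crosslinked and native libraries of the same genotype and number had correlations of 0.15 to 0.18 (FLAG) and 0.30 to 0.39 (WT), while the fit over all libraries treats them as independent. With the replicate block, 1 gene was called higher and 13 lower in the native libraries, 14 higher and 20 lower over all libraries and 2 for the protocol change in WT, with 0 of the 8 genes among them. Crossing the crosslinked pairs called 0 genes. Of the 24 genes most like a member, 11 remained when each protocol was centred on its own mean, and the motif counts of all members together were 53 to 79 under both alternatives, against 67. Depth is unknown, so the counting error of low values such as those of Lif and Socs3 cannot be given.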
